A study of Oryza sativa Indica Group with 24 samples.

Results

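The comparison described here asks which genes changed between 7 and 14 days post-anthesis (DPA) by a different amount in the grains of RD57, a high-amylose indica rice, and RD6, a waxy indica rice. For each gene the change between 7 and 14 DPA in RD6 was subtracted from the same change in RD57. The result is a difference of 2 changes on the log2 scale, in which 1 unit is a doubling. All genes above 0 in every one of the 12 libraries at 7 and 14 DPA were tested, 17819 of the 26362 genes of the deposited table. Of these, 89 genes passed both thresholds, an adjusted p of at most 0.05 and an absolute difference of at least 2. They made up 0.499% of the genes tested.

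The study sequenced mRNA of developing grains of both cultivars at 4 stages, 7, 14, 21 and 28 DPA. Each cultivar and stage was represented by 3 biological replicates, and there were 24 libraries. The 4 groups used for the difference were RD57 at 14 DPA, RD57 at 7 DPA, RD6 at 14 DPA and RD6 at 7 DPA, and the libraries at 21 DPA served as a later stage that the difference did not use. Plants of both cultivars were untreated and grew in pots in one net house under natural light. Grains came from the apical primary branches of a tagged panicle on the main stem. The labels give the tissue as endosperm, whereas the methods describe whole frozen grains, so RNA of the embryo and of the maternal layers may be present. Each cultivar is a single genotype, and the waxy trait cannot be told apart from other differences between the cultivars.

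Rice endosperm forms its cells early in development, and starch and storage proteins accumulate in it during grain filling. The paper reports high expression of most genes for storage compounds from the earlier of the stages compared here. These stages are thus not taken as lying before and after the start of grain filling. Amylose, the mostly linear part of starch, is made by granule-bound starch synthase I (GBSSI), the product of the Waxy gene, and waxy rice has little amylose because this gene is impaired. ADP-glucose, the sugar donor for starch, is made by ADP-glucose pyrophosphorylase, which is built of large and small subunits. A gene can differ in its course between cultivars because it rises or falls to another extent, or because it turns at another stage.

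The table lists genes by assembly identifiers, and 0 of them matched the gene table at hand, so no pathway or marker list could be counted. The exceptions were 4 genes whose names stand beside their identifiers in a heat map of the study: GBSSI, AgpS2b, AtGSTF13 and ENOD93. Those labels were read by eye, so an error in reading an identifier would put the name on the wrong gene. The study had placed these 4 genes, from the same data, in a profile shared by both cultivars, with active expression at 14 DPA. A similar course in both cultivars was thus partly fixed by that choice. Both starch genes that mark the endosperm were high in all 12 libraries, with at least 1591 FPKM for GBSSI and 1267 FPKM for AgpS2b. FPKM, the unit of the table, is the number of fragments scaled to transcript length and library size. The libraries differed in how much of this scale a few genes took up. The 10 most abundant genes held 39.4 to 40.6% of all FPKM in RD57 at 14 DPA, 17.7 to 29.1% in RD57 at 7 DPA, 24.2 to 27.8% in RD6 at 14 DPA and 13.5 to 18.5% in RD6 at 7 DPA. The medians of the 17819 genes still lay close together, between 8.74 and 9.76 FPKM in every library, and the median difference over all genes was -0.0022. Across genes, replicates correlated with r of 0.947 to 0.977 over 12 pairs of libraries, and libraries of different groups with r of 0.807 to 0.95.

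Few genes changed in opposite directions in the cultivars. By adjusted p alone, 3753 genes rose in RD57 (21.1% of those tested) and 2835 fell (15.9%), while 3404 rose in RD6 (19.1%) and 2781 fell (15.6%). Of the genes tested, 2375 (13.3%) rose in both cultivars, 1451 (8.14%) fell in both, and 8939 (50.2%) passed in neither. By the same test, 49 genes rose in RD57 and fell in RD6, and 18 fell in RD57 and rose in RD6. With the threshold of 2 on the log2 scale as well, 689 genes changed in RD57 (3.87%), of which 536 rose and 153 fell, and 836 changed in RD6 (4.69%), of which 644 rose and 192 fell. Across genes the changes of the cultivars correlated with r of 0.766, and genes are not independent replicates. In bulk grains, a lower value can come from fewer cells of a type or from less RNA per cell, and these cannot be told apart.

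**Figure D1:**
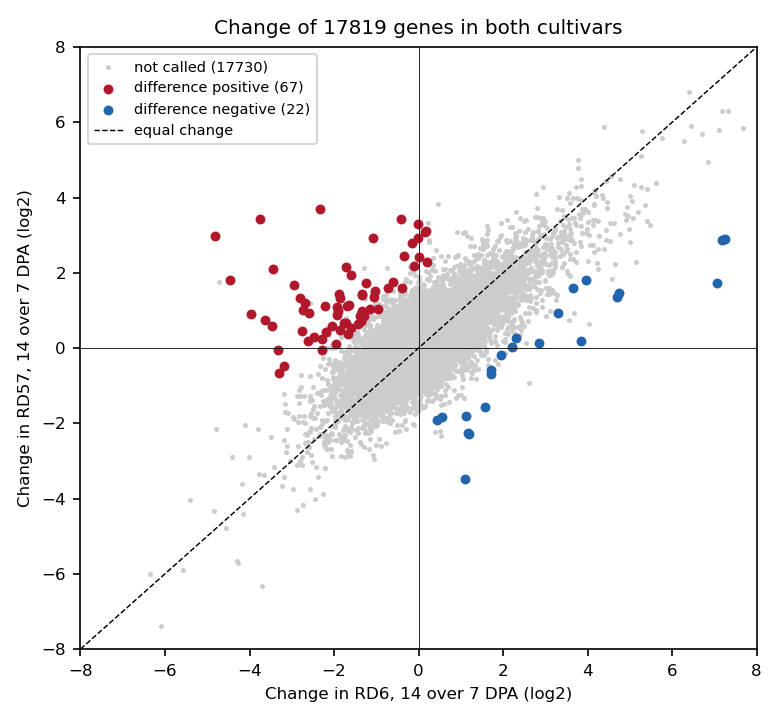
Change of each of the 17819 genes between 7 and 14 DPA, in RD57 on the vertical axis and in RD6 on the horizontal axis, both as log2 of 14 over 7 DPA; the dashed line marks equal change. The 67 genes with a positive difference lie above the line, many of them where RD57 is above 0 and RD6 below it, and the 22 with a negative difference lie below the line.

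The difference was positive for 67 genes (0.376%), which therefore changed upwards more, or downwards less, in RD57 than in RD6. It was negative for 22 genes (0.123%). By adjusted p alone, without the threshold of 2, 200 genes passed (1.12%), 131 with a positive and 69 with a negative difference. The counts depended on single libraries: they were 153 without RD57 14 DPA replicate 1, and 45, 43, 47, 53 and 42 without RD6 14 DPA replicate 2, RD6 14 DPA replicate 3, RD57 7 DPA replicate 2, RD6 7 DPA replicate 1 and RD6 7 DPA replicate 2. Of the 89 genes, 37 passed by adjusted p in every one of the 12 fits that left out 1 library, 28 with a positive and 9 with a negative difference. The called share was larger at higher expression: 29 of 8869 genes with a mean of 1 to 10 FPKM passed (0.327%), 41 of 7406 with 10 to 100 FPKM (0.554%), 18 of 1239 with 100 to 1000 FPKM (1.45%), and 1 of 110 above that (0.909%). The mean FPKM of the called genes had a median of 30.5, against 9.70 for all genes tested.

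The 67 genes with a positive difference were, as a set, high in RD6 at 7 DPA and low in RD57 at the same stage. Their median FPKM was 23.0, 55.1 and 30.4 in the libraries of RD57 at 14 DPA, 8.22, 12.3 and 16.7 in RD57 at 7 DPA, 20.9, 14.7 and 12.3 in RD6 at 14 DPA, and 62.6, 55.3 and 43.6 in RD6 at 7 DPA. The 3 libraries of RD57 at 14 DPA were spread wider than those of the other groups, with replicate 2 highest. Without that library 60 genes were called in both directions together, and 54 of them were among the 89. The 67 genes held 0.212 to 0.478% of all FPKM in RD57 at 14 DPA, 0.140 to 0.173% in RD57 at 7 DPA, 0.165 to 0.226% in RD6 at 14 DPA and 0.672 to 1.01% in RD6 at 7 DPA. The share in RD6 at 7 DPA thus lay above that of every other library at these stages. It was not the highest of the series. Over both cultivars at 21 and 28 DPA, the share ranged from 0.746% (RD6 28 DPA replicate 3) to 1.96% (RD57 28 DPA replicate 1). Total FPKM differed, at 1670225 to 1748780 in RD57 at 14 DPA and 824388 to 935195 in RD6 at 7 DPA. In summed FPKM of the set these 2 groups overlapped, with 8279 in RD57 14 DPA replicate 2 and 5543 in RD6 7 DPA replicate 3.

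Among these 67 genes the difference ranged from 2.01 to 7.79 with a median of 2.80. Their median change was 1.12 in RD57 and -1.72 in RD6, against -0.00068 and -0.014 for all genes tested. By adjusted p alone, 27 of them rose in RD57 and fell in RD6, as 0.275% of the genes tested did. A further 15 rose in RD57 without passing the test in RD6 (7.46% of the genes tested), and 25 fell in RD6 without passing it in RD57 (7.19%). These counts, and those of overlap between groups, come from the same 12 libraries that gave the difference and only describe its makeup.

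The separation of the cultivars at each stage was counted over the same libraries. At 7 DPA, all 3 RD57 libraries lay below all 3 RD6 libraries for 63 of the 67 genes (94.0%), against 15.2% of the genes tested. At 14 DPA, all RD57 libraries lay above all RD6 libraries for 42 genes (62.7%), against 15.2% of the genes tested. The cultivars crossed, with RD57 above RD6 at 14 DPA and below it at 7 DPA, for 38 genes (56.7%), against 1.09% of the genes tested. For 22 genes all 3 libraries of RD6 at 7 DPA exceeded the other 9 libraries, which 6.25% of the genes tested did. For 14 genes the libraries of RD57 at 7 DPA were the lowest of the 12 (2.74% of the genes tested), and for 7 those of RD57 at 14 DPA were the highest (7.03%). The last of these counts, 10.4% of the set, was near that of all genes.

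**Figure D2:**
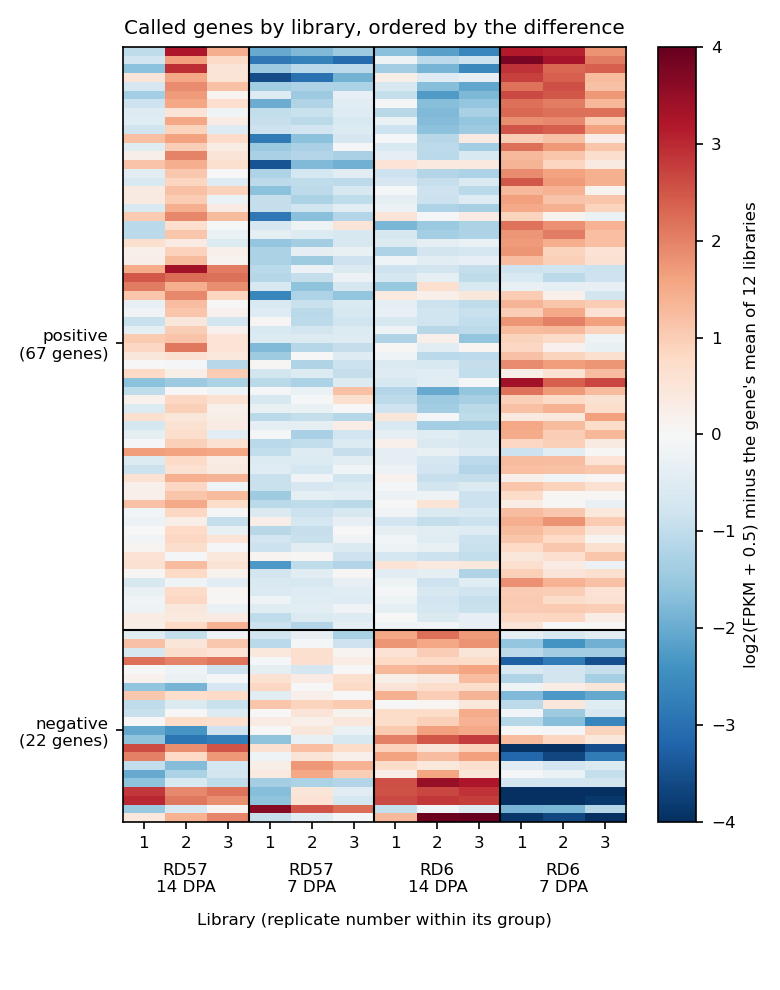
The 89 called genes, 1 per line and ordered by the difference, in the 12 libraries (columns, 3 per group); colour gives log2(FPKM + 0.5) minus the gene's mean over the 12 libraries, with the scale ending at 4 in either direction. In the upper block of 67 genes the libraries of RD6 at 7 DPA are mostly red and those of RD57 at 7 DPA mostly blue, and in the lower block of 22 genes the libraries of RD6 at 14 DPA are mostly red.

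XLOC_014449 had the largest positive difference among the 28 genes of this set that passed in all 12 of those fits. It had 36.3, 695 and 204 FPKM in RD57 at 14 DPA and 18.05, 21.2 and 26.6 FPKM in RD57 at 7 DPA. In RD6 it had 23.0, 16.0 and 11.6 FPKM at 14 DPA and 663, 626 and 258 FPKM at 7 DPA. The gene was thus low in RD57 when it was high in RD6, and the cultivars did not overlap at either stage, although the RD57 libraries at 14 DPA spread widely. Its change was 2.97 in RD57 (adjusted p = 0.0109) and -4.83 in RD6 (adjusted p = 0.000607), a difference of 7.79 (95% interval 5.41 to 10.2, adjusted p = 0.0083). The interval is for a gene taken alone and does not allow for its choice as an extreme. The same holds for the other genes named by the size of their difference. Over all alternatives the difference of XLOC_014449 stayed between 6.79 and 8.91. At 21 DPA the RD57 libraries averaged 76.0 ± 13.5 FPKM and the RD6 libraries 107 ± 69.5 FPKM (SD, n = 3 each), which differed by less than the spread between replicates.

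Between 7 and 14 DPA, XLOC_000930 also rose in RD57 and fell in RD6, with lower group means at these stages. It had 13.1, 71.9 and 38.8 FPKM in RD57 at 14 DPA, against 2.69, 3.11 and 2.27 FPKM in RD57 at 7 DPA. In RD6 it had 19.6, 10.7 and 12.3 FPKM at 14 DPA, against 321, 227 and 98.4 FPKM at 7 DPA. Here the cultivars overlapped at 14 DPA, and at 7 DPA every RD6 library was above every RD57 library. The value of RD57 7 DPA replicate 1 equalled the mean of the other 2 replicates, so it was filled in by the authors. The difference was 7.18 (95% interval 5.55 to 8.81, adjusted p = 0.00272), made of a change of 3.42 in RD57 and -3.76 in RD6. At 21 DPA it averaged 78.0 ± 5.02 FPKM in RD57 and 142 ± 47.9 FPKM in RD6, with an adjusted p of 0.0808 by limma.

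The median FPKM of the 22 genes with a negative difference was lowest in RD6 at 7 DPA and highest in RD6 at 14 DPA. It was 6.17, 9.53 and 11.8 in RD57 at 14 DPA, 13.3, 21.0 and 13.3 in RD57 at 7 DPA, 33.2, 39.0 and 38.2 in RD6 at 14 DPA, and 3.39, 3.41 and 3.58 in RD6 at 7 DPA. The cultivars did not overlap in this median at either stage. Their summed FPKM did not separate the cultivars at 14 DPA. It was 7437, 4095 and 6179 in RD57 and 4442, 4453 and 5231 in RD6 at that stage. The 22 genes held 0.236 to 0.445% of all FPKM in RD57 at 14 DPA, 0.169 to 0.239% in RD57 at 7 DPA, 0.335 to 0.457% in RD6 at 14 DPA and 0.0246 to 0.0358% in RD6 at 7 DPA. In these shares the cultivars overlapped at 14 DPA and RD6 was lower at 7 DPA. The difference ranged from -5.35 to -2.04 with a median of -2.83, and the median change was 0.0764 in RD57 and 2.25 in RD6. By adjusted p alone, 8 of the 22 rose in both cultivars (13.3% of the genes tested), and 7 rose in RD6 without passing the test in RD57 (5.67%). Another 4 fell in RD57 and rose in RD6 (0.101%), and 3 fell in RD57 without passing it in RD6 (7.67%).

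At 14 DPA, all RD57 libraries lay below all RD6 libraries for 13 of the 22 genes (59.1%), against 13.9% of the genes tested. At 7 DPA, all RD57 libraries lay above all RD6 libraries for 16 genes (72.7%), against 15.0% of the genes tested. Both held for 7 genes (31.8%), against 0.690% of the genes tested. The libraries of RD6 at 7 DPA were the lowest 3 of the 12 for 11 genes (5.97% of the genes tested), and those of RD6 at 14 DPA the highest 3 for 8 genes (2.85%). The 8 genes that rose in both cultivars did so to a different extent.

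XLOC_024811 was such a gene, and rose steeply in both cultivars. It had 624, 334 and 399 FPKM in RD57 at 14 DPA, against 26.3, 121 and 64.6 FPKM in RD57 at 7 DPA. In RD6 it had 515, 560 and 646 FPKM at 14 DPA, against 2.54, 4.47 and 3.63 FPKM at 7 DPA. The cultivars overlapped at 14 DPA, so the gene reached a similar range from a starting level that was lower in RD6. Its change was 2.87 in RD57 (adjusted p = 0.000458) and 7.17 in RD6 (adjusted p = 2.24e-06), a difference of -4.30 (95% interval -5.61 to -2.99, adjusted p = 0.0083). At 21 DPA the RD57 libraries averaged 23.2 ± 7.19 FPKM and the RD6 libraries 43.1 ± 35.8 FPKM (adjusted p = 0.460 by limma), well below the levels at 14 DPA in both cultivars.

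XLOC_002949 was set apart by RD57 at 7 DPA. It had 1.01, 2.21 and 3.98 FPKM in RD57 at 14 DPA, against 52.3, 23.6 and 19.4 FPKM in RD57 at 7 DPA. In RD6 it had 1.66, 3.37 and 2.52 FPKM at 14 DPA, the last of them a filled value, against 0.645, 0.670 and 1.38 FPKM at 7 DPA. The gene was near the 0.5 FPKM floor of the table in all groups but RD57 at 7 DPA. It fell by 3.48 in RD57 (adjusted p = 0.000158) and its change in RD6 was 1.11 (adjusted p = 0.0649), a difference of -4.59 (95% interval -5.92 to -3.26, adjusted p = 0.0083). In RD6 it was listed at 0 at 21 and 28 DPA, and in RD57 it averaged 0.902 ± 0.279 FPKM at 21 DPA and 1.97 ± 0.0662 FPKM at 28 DPA.

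**Figure D3:**
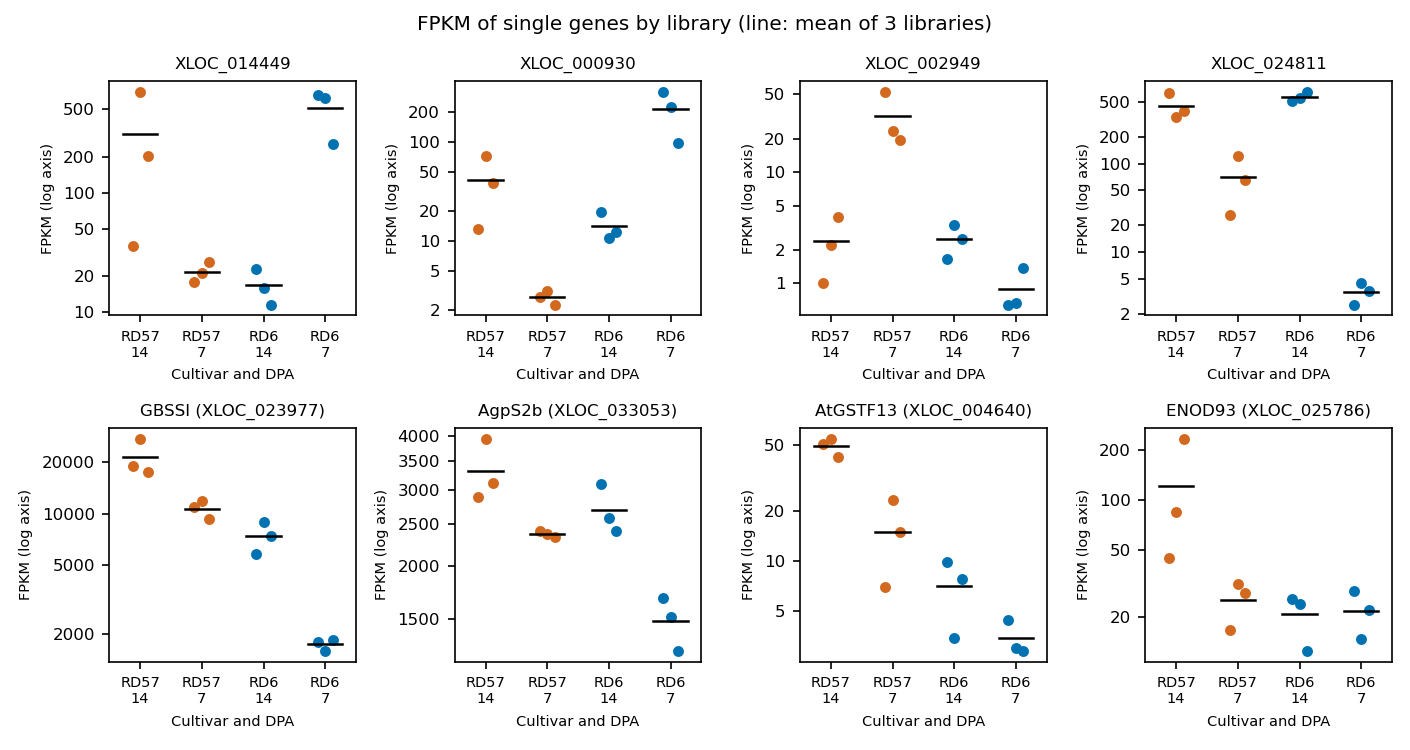
FPKM on a log axis of 8 genes in the 12 libraries (points, RD57 orange, RD6 blue; lines are means of 3 libraries) by cultivar and DPA. In the upper panels the means of XLOC_014449 and XLOC_000930 are highest in RD6 at 7 DPA, although RD57 14 DPA replicate 2 has the highest single value of XLOC_014449, and that of XLOC_002949 is highest in RD57 at 7 DPA; in the lower panels GBSSI is higher in RD57 at both stages.

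GBSSI, which makes amylose, was more abundant in RD57 at both stages. On the log2 scale its rise was larger in RD6, but not by an amount that passed the test. It had 18970, 27200 and 17500 FPKM in RD57 at 14 DPA, against 10870, 11750 and 9311 FPKM in RD57 at 7 DPA. In RD6 it had 5819, 8928 and 7396 FPKM at 14 DPA, against 1784, 1591 and 1853 FPKM at 7 DPA. None of the 4 groups overlapped another. Its change was 0.97 in RD57 (adjusted p = 0.0139) and 2.06 in RD6 (adjusted p = 0.000152). The difference of -1.09 had a 95% interval of -1.91 to -0.27 for this gene taken alone, and it did not pass after adjustment over all genes (adjusted p = 0.190). At 21 DPA, GBSSI averaged 5970 ± 1588 FPKM in RD57 and 598 ± 352 FPKM in RD6, so the distance between the cultivars was 2.61 at 7 DPA, 1.52 at 14 DPA and 3.49 at 21 DPA on the log2 scale. The distance was smallest at 14 DPA, when the gene was highest in both cultivars. Its difference from the distance at 7 DPA did not pass. Its difference from the distance at 21 DPA, which came from a separate fit, was not tested.

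AgpS2b encodes a small subunit of ADP-glucose pyrophosphorylase. It had 2880, 3936 and 3104 FPKM in RD57 at 14 DPA, against 2410, 2360 and 2334 FPKM in RD57 at 7 DPA, and 3093, 2576 and 2404 FPKM in RD6 at 14 DPA, against 1685, 1518 and 1267 FPKM at 7 DPA. The cultivars overlapped at 14 DPA and not at 7 DPA. The gene rose by 0.85 in RD6 (adjusted p = 0.00608), and its change of 0.47 in RD57 did not pass (adjusted p = 0.0839). The difference of -0.39 had a 95% interval of -0.999 to 0.228 (adjusted p = 0.547), so the data do not separate an equal change from one nearly 1 unit larger in RD6.

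AtGSTF13 is named after an Arabidopsis glutathione S-transferase, an enzyme that joins glutathione to other compounds. It had 51.4, 55.0 and 42.9 FPKM in RD57 at 14 DPA, against 6.95, 23.3 and 14.9 FPKM in RD57 at 7 DPA, and 9.91, 3.45 and 7.76 FPKM in RD6 at 14 DPA, against 4.39, 2.99 and 2.86 FPKM at 7 DPA. RD57 was above RD6 in every library at both stages. It rose by 1.84 in RD57 (adjusted p = 0.00454) and its change in RD6 was 0.85 (adjusted p = 0.123). The difference itself, 0.98, had a 95% interval of -0.266 to 2.23 (adjusted p = 0.441), so a rise that passed in one cultivar and not in the other was not shown to differ between them.

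ENOD93, named after an early nodulin gene of legumes, came closest of the 4 labelled genes to the thresholds. It had 44.8, 84.4 and 233 FPKM in RD57 at 14 DPA, against 16.7, 31.4 and 27.8 FPKM in RD57 at 7 DPA. In RD6 it had 25.7, 23.9 and 12.4 FPKM at 14 DPA, against 28.6, 14.7 and 21.8 FPKM at 7 DPA. RD57 at 14 DPA lay above all other libraries, but its replicates spread widely. It rose by 1.95 in RD57 (adjusted p = 0.00986), and its change in RD6 was -0.08 (adjusted p = 0.915). The difference of 2.04 had a 95% interval of 0.50 to 3.57 for this gene alone, and its adjusted p was 0.190, with a range of 0.0503 to 0.337 over the alternatives.

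The later stages, which the difference did not use, were examined for the called genes. Taking the mean of each group, 34 of the 67 genes with a positive difference were highest at 14 DPA in RD57 (50.7%, against 28.2% of the genes tested) and 28 at 28 DPA (41.8%, against 26.3%). In RD6, 49 of the 67 were highest at 7 DPA (73.1%, against 31.7%). For 31 of the 67 genes RD57 was highest at 14 DPA and RD6 at 7 DPA, which held for 932 of the 17819 genes tested. Of the 22 genes with a negative difference, 18 were highest at 14 DPA in RD6 (81.8%, against 28.3%). In RD57, 10 of the 22 were highest at 7 DPA (45.5%, against 32.3%) and 8 at 14 DPA (36.4%, against 28.2%). The 7 and 14 DPA values enter these counts, so they are in part fixed by the difference itself.

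**Figure D4:**
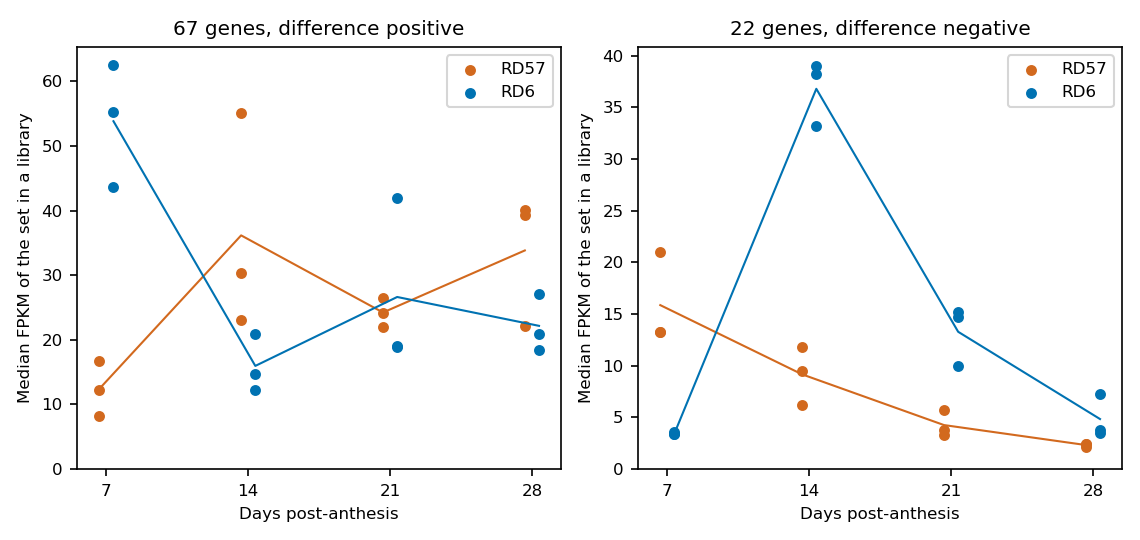
Median FPKM of the 67 genes with a positive difference (left) and the 22 with a negative difference (right) in each library (points) against days post-anthesis, with lines through the mean of the 3 libraries. At 7 DPA the RD57 libraries are at 8.22 to 16.7 FPKM and the RD6 libraries at 43.6 to 62.6 FPKM in the left panel, and the cultivars overlap there at 21 and 28 DPA; in the right panel RD6 is at 33.2 to 39.0 FPKM at 14 DPA, above every other library.

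At 21 DPA the cultivars overlapped in the median level of the set with a positive difference. Its median FPKM was 22.0, 26.5 and 24.2 in RD57 and 19.0, 42.0 and 18.9 in RD6 at 21 DPA, and 40.1, 22.1 and 39.3 in RD57 and 27.1, 20.9 and 18.5 in RD6 at 28 DPA. Of the 67 genes, 58 were above 0 in all 6 libraries at 21 DPA and could be tested there, 4 were listed at 0 in both cultivars, 4 in RD57 only and 1 in RD6 only. The RD57 mean was the higher one for 29 of the 58 genes, and their median log2 difference was 0.00415, against 0.0261 for all genes tested. In a separate limma fit to the 6 libraries at 21 DPA, 1 of the 58 passed by adjusted p as higher in RD57 (7.40% of the genes tested did) and 4 as lower (6.13%). All RD57 libraries were above all RD6 libraries for 6 genes (10.3%, against 20.2% of the genes tested) and below for 7 (12.1%, against 15.3%).

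The median FPKM of the set with a negative difference was 5.67, 3.80 and 3.31 in RD57 and 9.96, 14.7 and 15.2 in RD6 at 21 DPA, without overlap, and 2.09, 2.45 and 2.44 in RD57 and 3.49, 3.77 and 7.27 in RD6 at 28 DPA. Of the 22 genes, 18 were above 0 in all 6 libraries at 21 DPA, 3 were listed at 0 in RD57 only and 1 in RD6 only. The RD57 mean was the higher one for 4 of the 18 genes (22.2%), against 52.3% of the genes tested. By adjusted p, 2 of the 18 passed as higher in RD57 (7.40% of the genes tested) and 5 as lower (6.13%). All RD57 libraries were above all RD6 libraries for 2 of them (11.1%, against 20.2% of the genes tested) and below for 6 (33.3%, against 15.3%).

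Genes listed at 0 in some groups were outside the test above and were counted by pattern. A fit that included them called 1349 genes, 737 with a positive and 612 with a negative difference, but a log2 difference against 0 depends on the pseudocount and a group at 0 has no spread. A gene was listed at 0 either in all 3 libraries of a group or in none, after the floor of 0.5 FPKM. Of the genes outside the test, 1470 were at 0 in all 4 groups and 7073 in 1 to 3 of them. Most genes at 0 in 1 to 3 groups were low where they were above 0, with a median of 1.43 FPKM, and 546 had at least 5 FPKM in every group above 0. In the wording used here, a gene was on at 14 DPA when it was listed at 0 at 7 DPA and above 0 at 14 DPA, and off in the opposite case.

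Genes that switched in one cultivar alone were about equally frequent in both. In RD57 alone, 956 genes were on at 14 DPA and 998 were off, and in RD6 alone 942 were on and 1043 were off. A switch in opposite directions was rarer, with 108 genes on in RD57 and off in RD6 and 77 genes off in RD57 and on in RD6. Of these 4124 genes, 121 (2.93%) had at least 5 FPKM wherever they were above 0. A further 719 genes were on and 585 off in both cultivars, 830 were above 0 at both stages in RD57 and at 0 in RD6, and 815 the reverse. These cultivar-bound genes were the ones with the most members at 5 FPKM or more, 197 in RD57 and 159 in RD6. A library reached at least 300 FPKM for 12 of the 4124 genes, up to 12102 FPKM, in genes listed at 0 in another group. An exact 0 beside such a level can be a failed estimate, so no fold change is given for single genes of this kind.

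**Figure D5:**
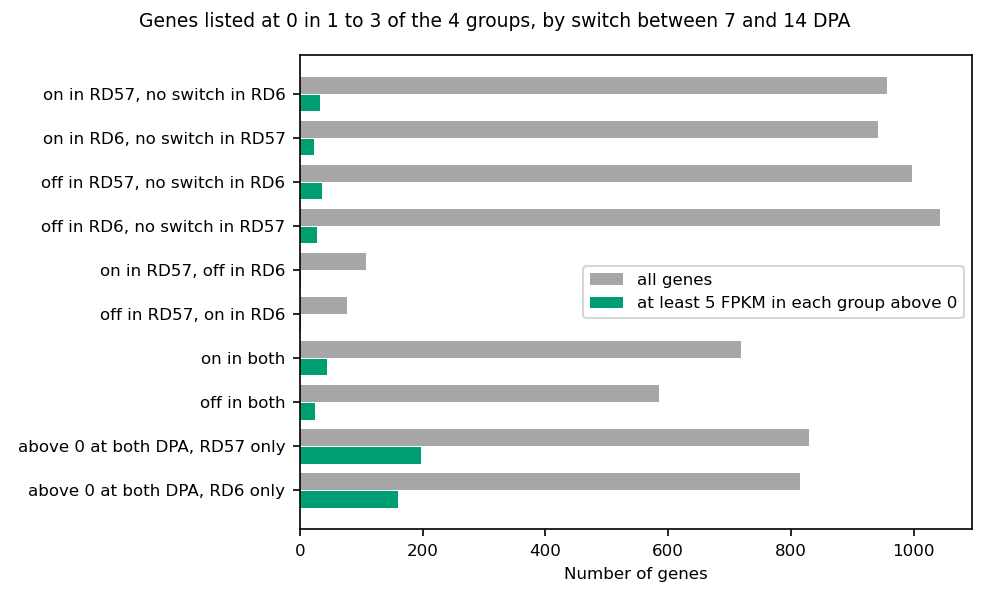
Number of genes (horizontal axis) listed at 0 in 1 to 3 of the 4 groups, by whether they switched on or off between 7 and 14 DPA in each cultivar; grey bars count all such genes and green bars those with at least 5 FPKM in each group above 0. The single-cultivar switches hold 942 to 1043 genes each, but 23 to 36 of them reach that level, against 197 and 159 of the genes above 0 at both stages in one cultivar.

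Values filled in by the authors were more common among called genes. Of the 89 genes, 20 (22.5%) had a filled value in at least 1 of the 12 libraries, 14 with a positive and 6 with a negative difference, against 9.79% of all genes tested. A filled value equals the mean of the other replicates and narrows their spread. With every such gene left out, 68 genes were called, all of them among the 69 called genes that remained for testing.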

How the data were processed

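The authors trimmed reads with Fastp and Trimmomatic, removed rRNA with SortMeRNA, aligned to the indica genome ASM465v1 with HISAT2, and assembled and quantified transcripts with Cufflinks, Cuffmerge, Cuffquant and Cuffnorm. Tool versions are not given in the sources used here. The deposited FPKM were summed per gene by the authors, who set a floor of 0.5 FPKM, kept genes seen in 2 or more replicates and replaced absent values by the average of those present. Read numbers behind the values were not used here, and precision rests on 3 replicates per group.

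Columns were matched to samples by name. Values were transformed to log2(FPKM + 0.5), which understates changes of low genes, and tested with limma 3.58.1 in R 4.3.3 (4 group means, trended prior variance), with Benjamini-Hochberg adjustment over all 17819 genes. The contrast was RD57 (14 minus 7 DPA) minus RD6 (14 minus 7 DPA). The authors fitted edgeR to 24 libraries. Their count model was not applied to FPKM, and since genes at 0 in a late group have no spread there, 12 libraries entered the fit. Thresholds were an adjusted p of 0.05 and 2 on the log2 scale. The 21 DPA libraries were fitted separately over 16330 genes. The script was tested on simulated data. Named genes were the 2 with the largest difference in each direction among those called in every fit without 1 library, and 4 labelled genes whatever their values. The comparison, thresholds and genes were chosen with earlier results of these data known. Alternatives were the pseudocount, filters, normalization, all 24 libraries, a replicate block, the prior variance, thresholds and each library left out. Plots used matplotlib 3.10.9 and pandas 2.3.3 under Python 3.11.15. Gene names and sequences other than the 4 labels were not used here.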

Additional observations from a re-analysis of the deposited data

Results flagged for a closer look

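The change between 7 and 14 DPA differed between the cultivars by the limma test of the difference itself for 4 single genes described above. For XLOC_014449 the change in RD57 minus that in RD6 was 7.79 (adjusted p = 0.0083), and for XLOC_000930 it was 7.18 (adjusted p = 0.00272). For XLOC_002949 it was -4.59 (adjusted p = 0.0083), and for XLOC_024811 it was -4.30 (adjusted p = 0.0083). Both genes with a positive difference had their highest group mean in RD6 at 7 DPA, where XLOC_014449 had 663, 626 and 258 FPKM and XLOC_000930 had 321, 227 and 98.4 FPKM. The highest single value of XLOC_014449, 695 FPKM, was that of RD57 14 DPA replicate 2.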

How the results depend on the processing

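The count of 89 genes with a cultivar difference became 1349 with no filter on low values, 45 with at least 5 FPKM in all 12 libraries, 195 with an absolute difference of at least 1 and 200 by adjusted p alone. The share with a positive difference was 75.3%, but 54.6% with no filter and 91.1% with at least 5 FPKM, and it lay between 60.8% and 80.3% when 1 library was left out. Leaving out 1 library gave 42 to 153 genes for the difference, 497 to 874 for RD57, 762 to 929 for RD6 and 139 to 259 at 21 DPA. In the same order of settings, the 689 genes that changed in RD57 became 2033, 220, 3209 and 6588, and the 836 in RD6 became 2155, 303, 3201 and 6185. At 21 DPA, 175 genes passed both thresholds and 2209 passed by adjusted p alone. Of 7073 genes at 0 in 1 to 3 groups, 3790 had at least 1 FPKM and 546 at least 5 FPKM where above 0. Other settings gave 110 and 79 genes (pseudocount 0.1 and 1), 90 (quantile normalization), 94 (median centring), 127 (all 24 libraries) and 88 (no trend in the prior variance). Replicate numbers showed no clear pairing of the samples. Deviations of same-numbered libraries correlated with r of -0.34 to 0.11, and a library correlated best with its own number in 14 of 36 cases. With 3 libraries per group, such a check cannot exclude a pairing. A replicate block gave 63 genes, 61 of them among the 89. All 8 named genes kept their side of the adjusted p threshold in every alternative that tested them. For the called ones this was fixed in advance in the fits without 1 library, because those fits were used to choose them. With genes holding a filled value left out, XLOC_000930 and XLOC_002949 were not tested. At 5 FPKM or more in all 12 libraries, XLOC_000930, XLOC_002949, XLOC_024811 and AtGSTF13 were not tested. With 3 replicates a group and no read counts, differences of genes near 0.5 FPKM are the least certain.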
